A study of Mus musculus with 12 samples.

Results

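Serpins are a family of proteins that share a fold and mostly inhibit serine proteases. Here they are taken as the 40 protein-coding genes of the deposited table whose symbol is Serpin followed by a clade letter from a to i and a number, out of 22557 genes in all. Livers of 12 female mice were compared by RNA sequencing, with 3 different mice in each of 4 groups. WT_no_tumor and WT_tumor mice were wild type for Mtdh, the gene of metadherin, and KO_no_tumor and KO_tumor mice carried an Mtdh knockout. The WT_tumor and KO_tumor mice bore a tumour of Py8119, a mouse mammary carcinoma cell line, and the other 2 groups bore no tumour. The labels give mice without a tumour as age-matched normal animals. The sources used here do not give how the knockout was made, the strain, the age or the time after tumour implantation, and each library holds all cells of a piece of powdered liver.

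A serpin presents an exposed reactive centre loop as bait. When the target protease cuts the loop, the serpin changes shape and traps the enzyme in a covalent complex that is then cleared, so each inhibitor molecule is used up. Hepatocytes secrete most serpins of blood plasma, among them inhibitors of elastase, thrombin, plasmin and complement proteases. Some members have lost inhibition and carry hormones or fold collagen instead, and clade B members stay inside cells. Several plasma serpins are acute-phase proteins, whose synthesis by the liver changes during inflammation.

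Of the 40 genes, 19 belonged to clade A, 12 to clade B, 2 each to clades E and F, and 1 each to clades C, D, G, H and I. On chromosome 12, 18 of the clade A genes lay side by side between positions 103581045 and 104380589 (mm39, the build of the deposited coordinates). This cluster includes 5 copies of the gene for alpha-1-antitrypsin (Serpina1a to Serpina1e), of which humans have a single gene, and the Serpina3 copies that are related to human antichymotrypsin. The coding sequences of the 5 Serpina1 genes were 96.3% to 98.5% identical over 10 pairs, and those of 7 Serpina3 genes 80.5% to 91.7% identical over 21 pairs (GENCODE M21 transcripts). The 81 bases that code for the loop, from its hinge to the conserved strand after it, are shown because they are where the Serpina1 copies diverge and because the loop sets which protease is bound. Capitals mark bases that differ from Serpina1a.
Serpina1a: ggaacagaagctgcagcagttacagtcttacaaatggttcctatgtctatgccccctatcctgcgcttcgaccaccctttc
Serpina1b: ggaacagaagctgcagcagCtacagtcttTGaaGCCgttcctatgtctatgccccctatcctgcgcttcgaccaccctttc
Serpina1c: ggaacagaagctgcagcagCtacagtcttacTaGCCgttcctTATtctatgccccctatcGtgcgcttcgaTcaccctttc
Serpina1d: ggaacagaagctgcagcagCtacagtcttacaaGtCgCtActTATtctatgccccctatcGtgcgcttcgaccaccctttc
Serpina1e: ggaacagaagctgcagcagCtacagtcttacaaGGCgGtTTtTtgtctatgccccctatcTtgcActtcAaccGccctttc

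In this stretch Serpina1b differed from Serpina1a at 6 bases, Serpina1c at 10, Serpina1d at 9 and Serpina1e at 12. Serpina1e therefore had 14.8% of its loop-coding bases different from Serpina1a. The same stretch is shown for Serpina3n and Serpinf2, the 2 serpins that changed with a tumour in wild-type livers, and for Serpina3k and Serpina3m, the most abundant Serpina3 copies.
Serpina3n: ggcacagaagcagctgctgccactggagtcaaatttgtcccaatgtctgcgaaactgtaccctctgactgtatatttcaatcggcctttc
Serpina3k: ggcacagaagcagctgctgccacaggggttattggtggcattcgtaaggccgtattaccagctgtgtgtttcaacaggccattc
Serpina3m: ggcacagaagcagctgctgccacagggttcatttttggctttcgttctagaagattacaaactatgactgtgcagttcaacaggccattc
Serpinf2: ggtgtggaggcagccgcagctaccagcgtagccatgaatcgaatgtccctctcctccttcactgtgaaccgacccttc

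Near-identical copies limit how far reads can be told apart. Of all windows of 75 bases in the Serpina1c transcript, 64.6% also stood in another serpin transcript, against 51.8% for Serpina1a, 34.2% for Serpina1d, 23.7% for Serpina1b and 20.3% for Serpina1e. The share was 5.61% to 9.65% for Serpina3f, Serpina3g, Serpina3i, Serpina3k and Serpina3m, 1.46% for Serpina3n, and 0 for 24 of the 40 genes, Serpinf2 among them. The annotated span of Serpina1b contains Serpina1d, and Serpina3m begins at the same base as Serpina3k and overlaps it over 7660 bases. Values of these copies are uncertain to that extent.

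Estimated depths were 12722900 reads in KO_tumor 1 and 25721300 to 43024200 reads in the other 11 libraries. KO_tumor 1 stood apart by this depth and by 14899 genes above 0, against 17772 to 20365 elsewhere. KO_no_tumor 3 stood apart by small RNA genes, which took 10.2% of its signal against 0.633% to 3.28% elsewhere. Albumin took 6.12% to 12.3% of the signal in every library, so the samples carried this mark of liver. Of 8 hepatocyte markers 7 were in the table, and their summed signal was 2811910 to 4640120. Mtdh, the targeted gene, was 3954 to 5702 in the 6 WT libraries and 323 to 1063 in the 6 KO libraries. In whole tissue, fewer cells of a type and less RNA per cell cannot be told apart.

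The serpins took 1.09% to 2.01% of all signal, and the 6 most abundant in each library carried 72.7% to 84.8% of that. Serpina1a, Serpina1b, Serpina1c and Serpina1d were among these 6 in every library, Serpina3k in all but KO_tumor 2, and Serpinc1 in all but the WT_tumor livers, where Serpina1e took its place. Per kilobase of exon in WT_no_tumor livers, mean signal was highest for Serpina1c at 67379 ± 13743 (SD, n = 3) and Serpina1a at 46708 ± 13642, a gap smaller than their spread. Serpina1d followed at 30087, Serpina3k at 22047 and Serpina1b at 15604. Among the other plasma serpins the per-kilobase level was 7124 for Serpina3m, 4809 for Serping1, 4293 for Serpind1, 4260 for Serpina6 and 3621 for Serpinf2. Serpinc1 had a mean signal of 19151 but a level of 2241, over 8546 exon bases. Exon bases were the union of all GENCODE M21 exons of a gene, and the annotation release used for counting is not stated. The levels of Serpind1, Serpina6 and Serpinf2 lay closer together than the spread between livers. All 12 clade B genes were below 100 per kilobase, from 87.5 for Serpinb9 down to 0 for Serpinb10 and Serpinb9b. Testing required 3 or more libraries with a value of 10 or more, which 35 members passed. Serpina3b, Serpinb1b, Serpinb7, Serpinb9b and Serpinb11 did not, with values from 0 to 17.3. Serpina9, Serpinb2 and Serpinb10 passed with exactly 3 libraries, so their inclusion depended on where they were high.

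**Figure D1:**
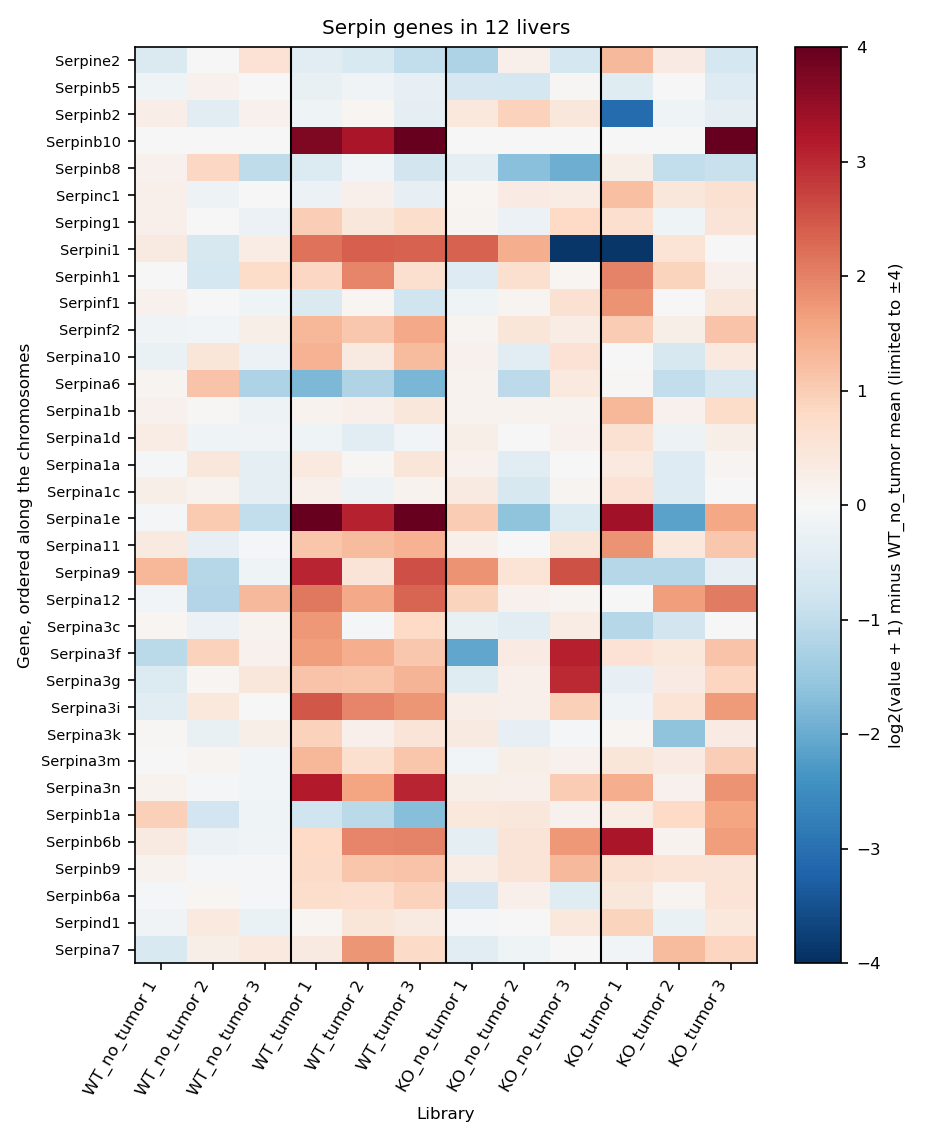
Heat map of 34 of the 35 tested serpin genes (rows, in chromosomal order) in 12 livers (columns). Colour is log2(value + 1) minus the mean of the 3 WT_no_tumor libraries, limited to 4 in either direction; Serpina3n and Serpina1e are red in all 3 WT_tumor livers, while Serpina6 and Serpinb1a are blue there.

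In wild-type livers, Serpina3n and Serpinf2 rose with the tumour, and both were higher in every tumour-bearing liver than in any tumour-free one. Serpina3n (ENSMUSG00000021091, chromosome 12, 104372988 to 104380589) encodes an inhibitor of granzyme B and cathepsin G made in the acute-phase response. Its normalised signal was 3068, 2743 and 2618 in the WT_no_tumor livers and 25018, 8386 and 23205 in the WT_tumor livers. The means were 2810 ± 232 and 18870 ± 9124 (SD, n = 3), with the second tumour-bearing liver well below the other 2. The difference was 2.60 ± 0.43 (SE) on the log2(value + 1) scale (limma with Benjamini-Hochberg adjustment, adjusted p = 0.015). Serpinf2 (ENSMUSG00000038224, chromosome 11, 75322558 to 75330418) encodes alpha-2-antiplasmin, the main inhibitor of the clot-dissolving protease plasmin. Its signal was 7608, 7727 and 9913 without a tumour and 20881, 17493 and 23787 with one. All 3 tumour-bearing livers were close together, and the difference was 1.30 ± 0.24 (limma adjusted p = 0.0262).

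Thus 2 of 35 tested serpins passed the threshold of 0.05, or 5.71%, where 0.679% of all 17380 tested genes did. At an unadjusted p below 0.05 the count was 16 of 35 (45.7%) against 8.67% of all genes. Values did not overlap between the groups for 15 serpins that were higher with a tumour and for 1 that was lower, against 9.46% and 8.05% of all genes. The median log2 fold change was 0.96 over the tested serpins and 0.00 over all genes. These shares describe the 35 members that passed the filter. Serpinb10, among both the 16 and the 15, passed it only through tumour-bearing livers, so its place was set by the filter. The 2 calls ended when WT_no_tumor 1, WT_no_tumor 2, WT_tumor 1 or WT_tumor 3 was left out, with limma adjusted p of 0.0645 to 0.0969 for Serpina3n and 0.112 to 0.131 for Serpinf2. Without the 2 libraries that stood apart 5 serpins passed, with Serpina11, Serpina1e and Serpinb9 added.

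**Figure D2:**
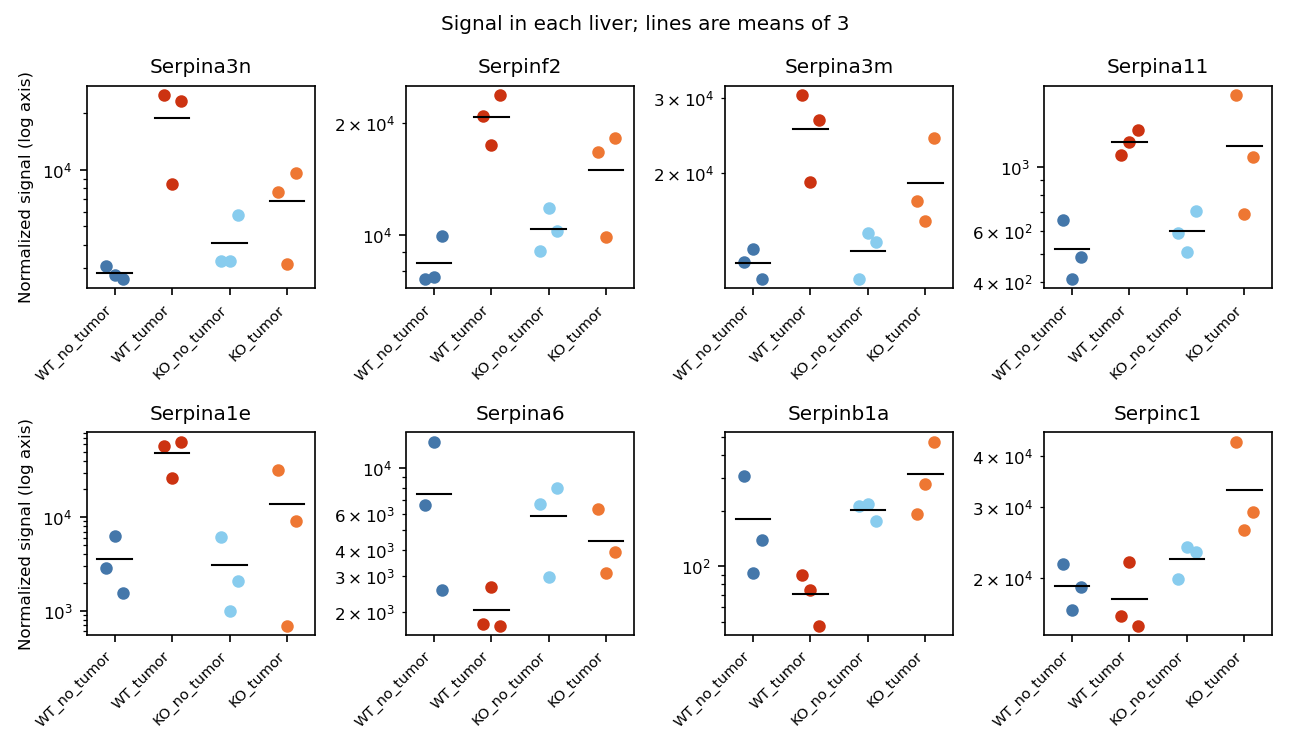
Normalised signal of 8 serpin genes (log axes) in each of 3 livers of the 4 groups, with the group mean as a line. Serpina3n, Serpinf2, Serpina3m, Serpina11 and Serpina1e separate WT_tumor from WT_no_tumor livers without overlap, and all 3 KO_tumor livers lie highest for Serpinc1.

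Serpina1e had the largest difference among the Serpina1 copies, but it did not pass the threshold. Its signal was 2891, 6344 and 1558 in WT_no_tumor, 57000, 26069 and 64085 in WT_tumor, 6143, 991 and 2100 in KO_no_tumor, and 31657, 691 and 9031 in KO_tumor. The KO_tumor livers ranged from the lowest value of all 12 libraries to the level of WT_tumor livers. The log2 fold change with a tumour was 3.90 ± 1.04 in WT (limma adjusted p = 0.146) and 1.32 ± 1.04 in KO (limma adjusted p = 0.564). The other 4 copies spread much less. Serpina1a was 79080, 113164 and 64461 in WT_no_tumor and 108164, 86132 and 115975 in WT_tumor, and these groups overlapped. Tumour log2 fold changes in WT were 0.30 ± 0.34 for Serpina1a, 0.27 ± 0.29 for Serpina1b, 0.05 ± 0.37 for Serpina1c and −0.24 ± 0.26 for Serpina1d.

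Serpina1e made up 0.754% to 2.16% of the summed signal of the 5 copies in WT_no_tumor livers. In WT_tumor livers its share was 16.4%, 9.84% and 17.3%. It was 0.484% to 2.0% in KO_no_tumor livers and 7.27%, 0.345% and 3.02% in KO_tumor livers. The share was thus higher in every WT_tumor liver than in any other of the 12. The summed signal of the 5 copies was 206771 to 294287 in WT_no_tumor and 264800 to 370162 in WT_tumor, with overlap. In KO_tumor it was 435428, 200394 and 298755, with the highest sum of all in the library of lowest depth. Serpina1b took 20.8% to 21.8% of the sum in KO_tumor livers and 11.8% to 16.5% in WT_tumor livers, without overlap, though it shares an annotated span with Serpina1d. The Serpina1d share did not overlap either, at 14.7% to 18.0% in KO_tumor and 10.4% to 11.6% in WT_tumor. Serpina1b also took 20.2% in KO_no_tumor 2. Shares of 1 sum are not independent, and Serpina1e took 9.84% to 17.3% of it in WT_tumor.

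**Figure D3:**
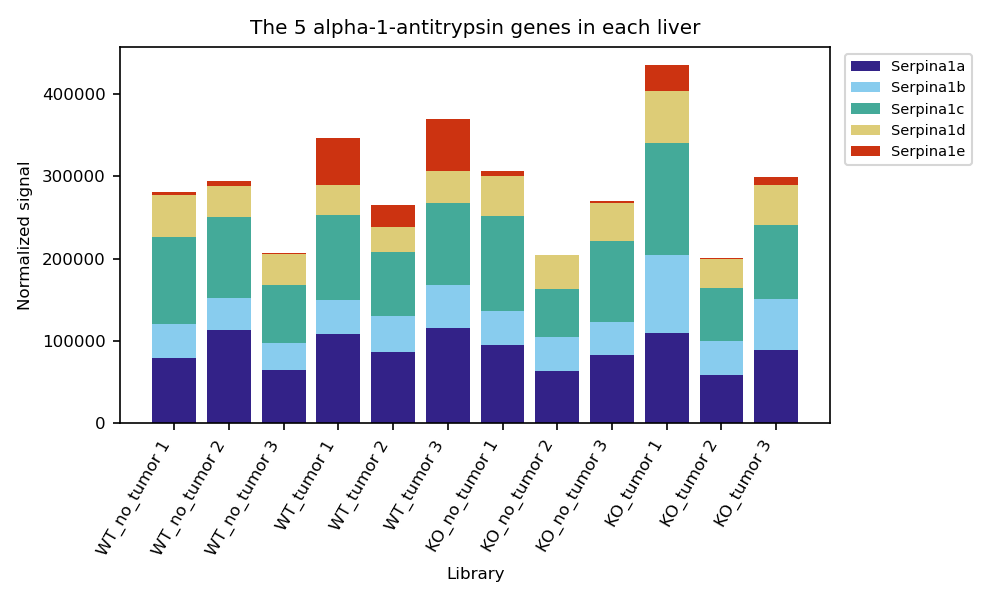
Stacked bars of the normalised signal of the 5 alpha-1-antitrypsin genes in each of 12 livers. Serpina1e, in red, is visible as 9.84% to 17.3% of the bar in WT_tumor livers and as 7.27% in KO_tumor 1.

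The promoters of Serpina1a and Serpina1e are shown because the values of these copies spread so unequally over the livers while part of their upstream sequence is close to the same. Positions are from the RefSeq promoter table (GRCm38.p6), a different build from that of the deposited table, and cannot be set beside those above. The promoters share a block of 192 aligned bases with 95.8% identity, in which 8 bases differ. It begins at base 58 of the 250 bases before the start in Serpina1a and at base 1 in Serpina1e. The block thus lies farther from the start in Serpina1e. The 120 bases shown lie at chr12:103863621-103863740 for Serpina1a and chr12:103956956-103957075 for Serpina1e, both on the minus strand. Capitals mark the 2 bases that differ among these 120.
Serpina1a: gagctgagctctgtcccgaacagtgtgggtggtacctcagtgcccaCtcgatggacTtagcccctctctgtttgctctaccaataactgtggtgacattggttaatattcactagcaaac
Serpina1e: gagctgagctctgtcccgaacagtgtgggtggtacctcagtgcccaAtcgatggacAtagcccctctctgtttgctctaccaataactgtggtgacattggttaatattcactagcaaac

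Promoters of 32 of the 40 serpins were in the table. A serpin was counted once if any promoter listed for it matched, whereas the shares of all promoters count every promoter singly. These shares are therefore of unlike units. The letters GTTAAT, a half-site of the liver factor HNF1, stood within 250 bases before the start, on either strand, in 8 of the 32 (25%) and in 6.43% of 32851 promoters. All 5 Serpina1 copies held it, and it can be read near the right end of both blocks above. Promoter blocks of the other copies were 93.4% to 97.6% identical to Serpina1a, so these 5 matches are not independent. The STAT-type letters TTCNNNGAA stood in 6 of 32 (18.8%) and in 7.02% of all promoters. These 6 were Serpina11, Serpina3f, Serpina3g, Serpina3i, Serpinb2 and Serpinb6a, of which the Serpina3 genes are related copies. The C/EBP-type letters TTGCNNAA stood in 8 of 32 (25%) and in 9.56% of all, with the copies Serpina1b, Serpina1d and Serpina1e among them. Matches of different motifs may overlap each other. Serpina3n and Serpinf2 were in the table and did not hold these letters in this window. The 200 bases before Serpina11 (chr12:103989958-103990157, minus strand, GRCm38.p6) are shown, with the STAT-type letters in capitals, since Serpina11 rose with the tumour when genotypes were averaged.
Serpina11: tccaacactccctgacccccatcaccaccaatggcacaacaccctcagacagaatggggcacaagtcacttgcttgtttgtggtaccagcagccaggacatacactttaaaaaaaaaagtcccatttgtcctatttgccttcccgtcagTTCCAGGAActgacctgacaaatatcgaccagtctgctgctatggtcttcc

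Of the Serpina3 copies, Serpina3m and Serpina3n passed a test and the other 5 did not. Serpina3m (ENSMUSG00000079012, chromosome 12, 104304745 to 104360517) was 12305, 13218 and 11215 in WT_no_tumor and 30512, 19060 and 26606 in WT_tumor, without overlap. It was 11215, 14389 and 13699 in KO_no_tumor and 17169, 15384 and 24118 in KO_tumor, again without overlap but with a smaller gap. The log2 fold change was 1.03 ± 0.23 in WT (limma adjusted p = 0.0652) and 0.51 ± 0.23 in KO (limma adjusted p = 0.388). Its neighbour Serpina3k, known as a kallikrein-binding protein, was 36677 to 53064 in WT_no_tumor and 51289 to 84110 in WT_tumor, with overlap and a difference of 0.54 ± 0.42. In KO_tumor livers Serpina3k was 47619, 14547 and 56118, and the second of these was the lowest of the 12 libraries. Serpina3i, a copy at low level, was 18.1, 33.4 and 25.1 in WT_no_tumor and 144, 98.0 and 87.3 in WT_tumor, a difference of 2.07 ± 0.66 (limma adjusted p = 0.264).

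Serpina3f and Serpina3g were highest in KO_no_tumor 3, the liver with the large small RNA share. Serpina3g, an intracellular cathepsin inhibitor of blood cells, was 1614 there, against 140 to 516 in the other 11 libraries. Serpina3f was 823 there, against 21.8 to 306 elsewhere. Leaving this library out turned the KO against WT difference of Serpina3g without a tumour from 0.90 ± 0.66 to −0.14. Serpina3c stayed between 17.3 and 134 in all 12 livers.

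The cluster also holds serpins that carry hormones or have other roles. Serpina11 (ENSMUSG00000063232, chromosome 12, 103946502 to 103956217), a liver serpin of little-known function, was 659, 410 and 489 in WT_no_tumor and 1106, 1218 and 1343 in WT_tumor, without overlap. In KO livers it was 591, 508 and 708 without a tumour and 1775, 689 and 1089 with one, and a single KO_tumor value lay within the tumour-free range. The differences were 1.26 ± 0.30 in WT (limma adjusted p = 0.0931) and 0.88 ± 0.30 in KO (limma adjusted p = 0.34). Serpina6 encodes corticosteroid-binding globulin, the plasma carrier of glucocorticoids. It was 6575, 13356 and 2576 in WT_no_tumor and 1760, 2646 and 1723 in WT_tumor. The highest tumour-bearing value lay just above the lowest tumour-free value, and the log2 fold change of −1.61 ± 0.50 did not pass (limma adjusted p = 0.234). In KO livers Serpina6 was 2949 to 8000 without and 3099 to 6337 with a tumour.

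Serpina7, on chromosome X, encodes thyroxine-binding globulin. It was 1355, 2426 and 2740 in WT_no_tumor and 2682, 7004 and 3559 in WT_tumor, with differences of 0.96 ± 0.38 in WT and 0.86 ± 0.38 in KO. Serpina10, the protein Z-dependent inhibitor of coagulation factor X, was 3000, 5036 and 3024 in WT_no_tumor and 9448, 4574 and 8520 in WT_tumor. It was 3521, 2310 and 4647 in KO_tumor, with differences of 1.0 ± 0.34 in WT and −0.19 ± 0.34 in KO. Serpina12, known as vaspin, was 13.7 to 79.5 in WT_no_tumor and 93.6 to 166 in WT_tumor, without overlap. None of these 3 passed the threshold in either genotype, with limma adjusted p of 0.317 to 0.814.

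The inhibitors of clotting did not pass in any comparison. Serpinc1 encodes antithrombin, the main plasma inhibitor of thrombin. It was 21733, 16702 and 19018 in WT_no_tumor, 16174, 21877 and 15283 in WT_tumor, 19909, 23918 and 23160 in KO_no_tumor, and 43386, 26346 and 29172 in KO_tumor. All 3 KO_tumor livers lay above the 9 others. The KO against WT difference with a tumour was 0.87 ± 0.24 (limma adjusted p = 0.169), and the tumour effect was −0.12 ± 0.24 in WT and 0.53 ± 0.24 in KO. Serpind1, heparin cofactor II, was 7729 to 17018 over the 12 livers with overlap in every comparison. Serping1, the C1 inhibitor of complement and contact proteases, was 9521 to 12721 in WT_no_tumor and 15204 to 22072 in WT_tumor, without overlap (0.71 ± 0.28, limma adjusted p = 0.45).

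Serpinf1 encodes pigment epithelium-derived factor, a secreted serpin without protease inhibition. It was 2071, 3267 and 1791 in WT_tumor and 10879, 3103 and 4238 in KO_tumor, and the highest value came from KO_tumor 1. The difference of 1.19 ± 0.37 (limma adjusted p = 0.212) was 0.66 without that library. Serpine2, protease nexin 1, was 39.7 to 237 with overlap between groups, and highest in KO_tumor 1.

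Serpinh1 encodes HSP47, the collagen chaperone of the endoplasmic reticulum. It was 147, 89.4 and 245 in WT_no_tumor and 264, 580 and 230 in WT_tumor, with slight overlap (1.15 ± 0.53, limma adjusted p = 0.574). In KO it was 104 to 230 without and 170 to 592 with a tumour (0.96 ± 0.53, limma adjusted p = 0.435). Summed signal of 10 stellate cell and fibroblast markers was 9917 to 12560 in WT_no_tumor, 15652 to 20056 in WT_tumor, 9702 to 11651 in KO_no_tumor and 14013 to 17285 in KO_tumor. None of these markers was at 0 throughout, and their part in the Serpinh1 values was not tested. Serpini1, neuroserpin, was 8.41 to 18.1 in WT_no_tumor and 65.6 to 77.0 in WT_tumor without overlap, but the difference of 2.30 ± 1.48 did not pass (limma adjusted p = 0.754). It was 74.7, 39.1 and 0 in KO_no_tumor and 0, 20.8 and 13.8 in KO_tumor, so that a tumour-free KO liver reached the WT_tumor level.

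No clade B serpin passed the threshold. Serpinb9, the inhibitor that protects cells from granzyme B, was 333, 286 and 298 in WT_no_tumor, 524, 654 and 670 in WT_tumor, 379, 438 and 744 in KO_no_tumor, and 461, 449 and 440 in KO_tumor. Every other liver lay above the WT_no_tumor livers. The tumour difference was 1.0 ± 0.27 in WT (limma adjusted p = 0.146) and −0.15 ± 0.27 in KO (limma adjusted p = 0.82). Serpinb1a, the inhibitor of neutrophil elastase and cathepsin G in leukocytes, was 308, 91.5 and 138 in WT_no_tumor and 90.0, 74.2 and 47.6 in WT_tumor. It was 212, 218 and 176 in KO_no_tumor and 192, 277 and 472 in KO_tumor, so that WT_tumor held the 3 lowest livers. The KO against WT difference with a tumour was 2.09 ± 0.49 (limma adjusted p = 0.136).

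Serpinb6a, an intracellular inhibitor found in many tissues, was 248 to 270 in WT_no_tumor and 408 to 486 in WT_tumor, without overlap (0.76 ± 0.29, limma adjusted p = 0.423). It overlaps Nqo2 on the opposite strand. Serpinb6b was 30.5 to 46.3 in WT_no_tumor and 63.4 to 144 in WT_tumor, and reached 353 in KO_tumor 1. Serpinb8 was 141 to 506 in WT_no_tumor and 73.7 to 218 in KO_no_tumor, with overlap. Serpinb10 was listed at 0 in all 6 tumour-free libraries and in KO_tumor 1 and 2, and was 12.2, 8.64 and 29.9 in WT_tumor and 26.2 in KO_tumor 3, so no fold is given. Serpinb5, known as maspin, was 16.5 to 31.5 over the 12 livers. Serpinb2, an inhibitor of urokinase, was 0 to 15, and Serpina9, a serpin of germinal centre B cells, 0 to 17.3.

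Summed signal of 10 neutrophil markers was 71.7 to 247 in WT_no_tumor and 484 to 855 in WT_tumor, without overlap. It was 117 to 163 in KO_no_tumor and 120 to 395 in KO_tumor, with overlap, and none of the 7 tested markers passed in any comparison. S100a9, Ly6g, Retnlg, Mmp8, Camp and Ltf had a median of at most 10 over the libraries, and none was at 0 in all of them. Megakaryocyte and platelet markers summed to 48.4 to 75.7 in WT_no_tumor and 216 to 293 in WT_tumor. In KO they summed to 39.1 to 134 without and 2.47 to 149 with a tumour. Macrophage markers summed to 4161 to 9338 in WT_no_tumor and 7322 to 10889 in WT_tumor, and markers of mammary epithelium to 91.8 to 102 and 80.6 to 99.6. Sums of 5 other lists did not overlap between WT_no_tumor and WT_tumor. They were 1600 to 3040 and 4843 to 7379 for erythroid cells, 5329 to 8116 and 9201 to 10944 for endothelial cells, 2394 to 3074 and 4489 to 5673 for mesothelial cells, 1415 to 1704 and 1878 to 2571 for cholangiocytes, and 2811910 to 3260990 and 3473210 to 4241850 for hepatocytes. In KO the endothelial sums were 7126 to 8451 without and 9983 to 16225 with a tumour, also without overlap. The erythroid, mesothelial, cholangiocyte and hepatocyte sums overlapped in KO. A sum follows its most abundant markers, and the single markers did not all rise in WT. The log2 fold change was positive for 6 of 6 erythroid, 7 of 8 endothelial and 4 of 6 mesothelial markers. It was positive for 3 of 6 cholangiocyte and 3 of 7 tested hepatocyte markers, with a hepatocyte median of −0.13. In WT livers 1 of 6 erythroid, 1 of 10 macrophage and 2 of 10 stellate cell and fibroblast markers passed upward, where 0.679% of all genes passed. None of the endothelial, mesothelial, cholangiocyte or hepatocyte markers did. The part of these cells in the serpin values was not tested.

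In KO livers, 0 of 35 serpins passed the limma threshold for the tumour, as did 0.0% of all genes, and 5 of 35 (14.3%) had an unadjusted p below 0.05 against 12.7% of all genes. Values did not overlap for 3 serpins that were higher (Serpina1b, Serpina3m and Serpinc1) and 2 that were lower (Serpina9 and Serpinb2), against 7.34% and 9.48% of all genes. Serpinb2 reached 10 only in the 3 KO_no_tumor livers, so its place among the lower genes was set by the filter. Serpina9 reached 10 only in WT_tumor 1, WT_tumor 3 and KO_no_tumor 3, so its place also depended on the filter. These shares were near those of all genes. Serpina3n was 3282, 3261 and 5730 in KO_no_tumor and 7644, 3173 and 9691 in KO_tumor, a difference of 0.65 ± 0.43 (limma adjusted p = 0.499). Serpinf2 was 9058, 11800 and 10248 without and 16762, 9909 and 18230 with a tumour, a difference of 0.49 ± 0.24 (limma adjusted p = 0.407). For both genes KO_tumor 2 lay within or below the tumour-free range while the other 2 livers lay above it.

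**Figure D4:**
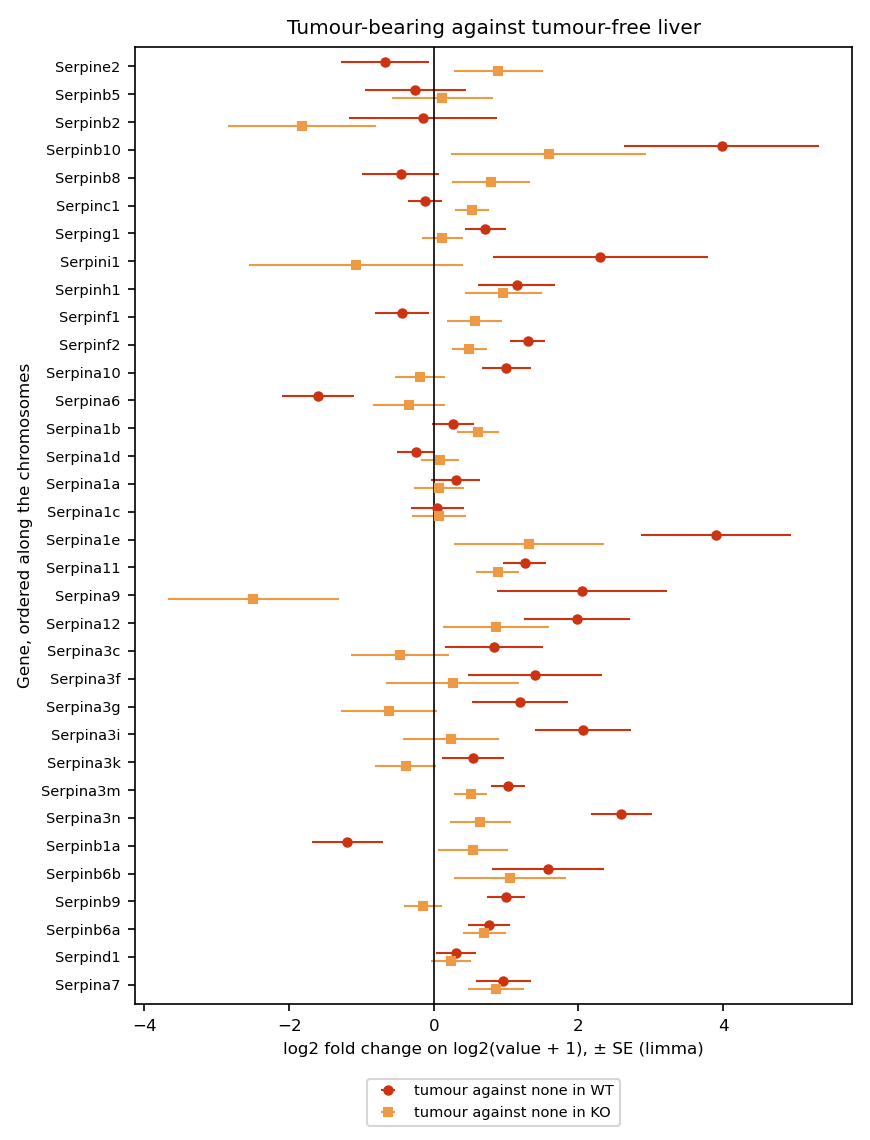
Log2 fold change (± SE, limma on log2(value + 1)) of tumour-bearing against tumour-free livers for 34 serpin genes in chromosomal order, in WT (circles) and KO (squares). Serpina3n lies at 2.60 in WT and 0.65 in KO, and Serpinf2 at 1.30 and 0.49.

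Averaged over genotypes, 4 of 35 serpins rose with the tumour (11.4%) against 1.06% of all genes called, and 15 of 35 (42.9%) against 15.1% had an unadjusted p below 0.05. Serpinb10, among the 15, had passed the filter only through tumour-bearing livers, so its place here was set by the filter. The 4 were Serpina3n at 1.62 ± 0.30 (limma adjusted p = 0.0231), Serpinf2 at 0.89 ± 0.17 (limma adjusted p = 0.0249), Serpina11 at 1.07 ± 0.21 (limma adjusted p = 0.0315) and Serpina3m at 0.77 ± 0.16 (limma adjusted p = 0.0406). Leaving out single libraries gave 0 to 5 calls, and 0 remained without WT_no_tumor 2, WT_tumor 1, WT_tumor 3, KO_no_tumor 1 or KO_tumor 3. Without the 2 libraries that stood apart 2 passed, since Serpinf2 and Serpina3m did not (limma adjusted p = 0.0758 and 0.0785).

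The tumour effects in the genotypes were compared by their interaction. None of the 35 serpins passed with limma, as 0.0% of all genes did, and 6 of 35 (17.1%) had an unadjusted p below 0.05 against 4.7% of all genes. Those 6 were Serpina10, Serpina3n, Serpina9, Serpinb1a, Serpinb9 and Serpinf2. Serpina9 had passed the filter only through WT_tumor 1, WT_tumor 3 and KO_no_tumor 3, so its place here depended on the filter. For Serpina3n the KO effect minus the WT effect was −1.95 ± 0.60 (95% interval −3.25 to −0.65, limma adjusted p = 0.859). For Serpinf2 it was −0.81 ± 0.34 (−1.54 to −0.08, limma adjusted p = 0.859). The absolute size of the log2 fold change, whatever its direction, was larger in WT than in KO for 27 of 35 serpins (77.1%), against 41.2% of all genes. By sign, the KO effect minus the WT effect was negative for 25 of the 35. The median interaction was −0.52 over the serpins and −0.09 over all genes.

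Between KO and WT livers without a tumour, 0 of 35 serpins passed the limma threshold, against 0.00575% of all genes. An unadjusted p below 0.05 was found for Serpinb8 and Serpinb9, 2 of 35 (5.71%), against 1.93% of all genes. Values did not overlap for 3 serpins that were higher in KO (Serpina3n, Serpinb2 and Serpinb9) and 0 that were lower, against 3.56% and 4.37% of all genes. Serpinb2 had passed the filter only through the 3 KO_no_tumor livers, so its place here was set by the filter. Serpina3n was 2618 to 3068 in WT and 3261 to 5730 in KO, a difference of 0.49 ± 0.43 with a 95% interval of −0.42 to 1.41. For Serpina1a the interval was −0.81 to 0.65 and for Serpinc1 −0.28 to 0.73. The median log2 difference was 0.13 over the serpins and −0.01 over all genes.

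With a tumour, 0 of 35 serpins passed between KO and WT with limma against 0.023% of all genes, and 11 of 35 (31.4%) had an unadjusted p below 0.05 against 14.4%. Values did not overlap for 3 serpins that were higher in KO (Serpina6, Serpinb1a and Serpinc1) against 8.11% of all genes. They did not overlap for 6 that were lower (Serpina3g, Serpina3i, Serpina9, Serpinb6a, Serpinb9 and Serpini1) against 9.8% of all genes. Serpina9 had passed the filter only through WT_tumor 1, WT_tumor 3 and KO_no_tumor 3, so its place here depended on the filter. Serpina6 was 1723 to 2646 in WT_tumor and 3099 to 6337 in KO_tumor, a difference of 1.08 ± 0.50 (limma adjusted p = 0.342). Serpina3n was lower in KO by value, at −1.46 ± 0.43 (limma adjusted p = 0.196), with KO_tumor 3 at 9691 above WT_tumor 2 at 8386. The median was −0.39 over the serpins and −0.12 over all genes. Quantile normalisation moved the median of all genes in this comparison by 0.13. Averaged over tumour states 0 of 35 passed with limma against 0.0115% of all genes, and 4 of 35 (11.4%) against 10.3% had an unadjusted p below 0.05.

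**Figure D5:**
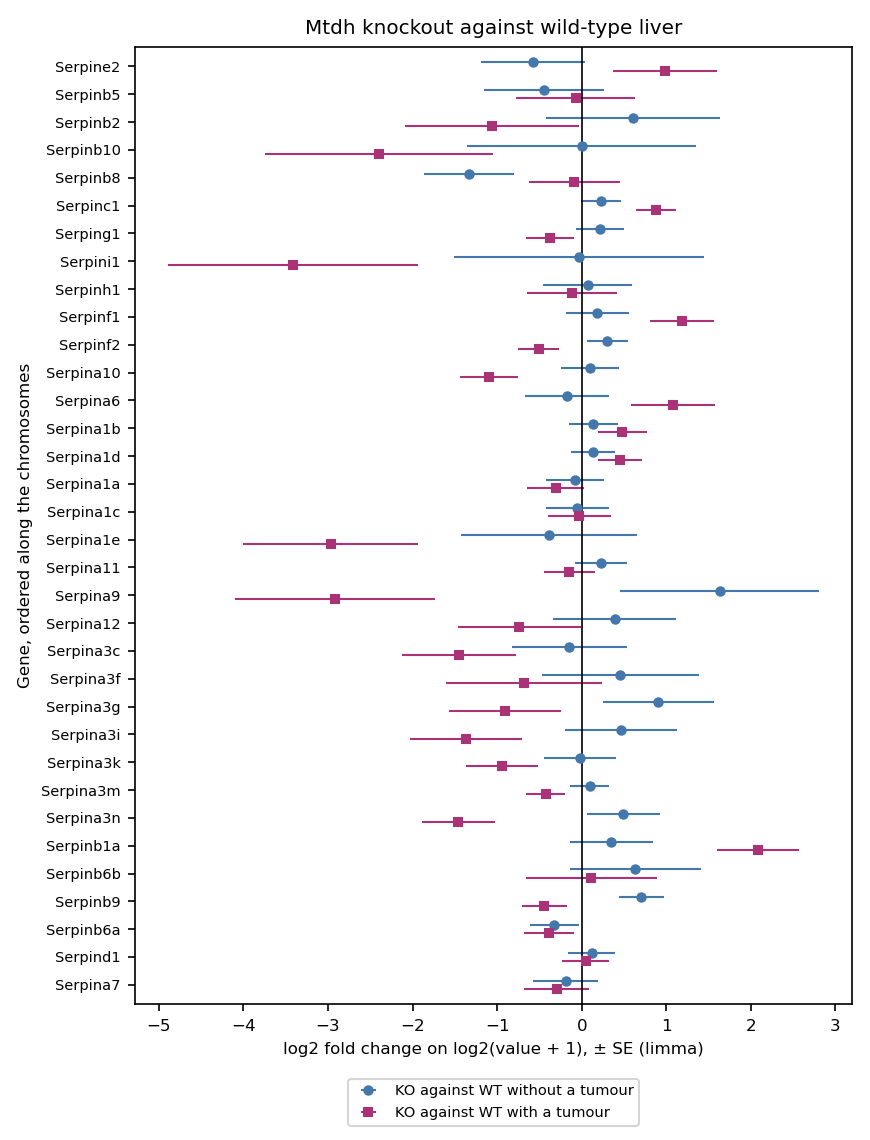
Log2 difference (± SE, limma on log2(value + 1)) of KO against WT livers for 34 serpin genes in chromosomal order, without (circles) and with a tumour (squares). With a tumour Serpinb1a lies at 2.09 and Serpinc1 at 0.87, and Serpina3n at −1.46.

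Genes that work with serpins were read from lists chosen with earlier results known. None of 16 target proteases of coagulation, fibrinolysis and complement passed for the tumour in WT or averaged over genotypes, with a median log2 fold change of 0.39 in WT. The list of protease inhibitors of other families had 22 tested genes, and 3 of them rose in WT, where 0.679% of all genes passed. They were Itih3 (2.43 ± 0.28, limma adjusted p = 0.00157), which binds hyaluronan, Mug2 (1.64 ± 0.25), of the alpha-2-macroglobulin family, and Cpb2 (1.15 ± 0.19). Cpb2 encodes a carboxypeptidase rather than an inhibitor, and like antiplasmin it slows the lysis of clots. Averaged over genotypes, where 1.06% of all genes passed, 7 of the 22 rose, with Ambp, Itih1, Itih4 and Timp1 added, and the median in WT was 0.95. Of 19 regulators of hepatic serpin genes 3 rose in WT, where 0.679% of all genes passed. They were the cytokine feedback inhibitor Socs3 (2.69 ± 0.39, limma adjusted p = 0.00814), the cytokine receptor chain Il6st (0.98 ± 0.18) and the transcription factor Stat3 (1.17 ± 0.21). Cebpd (2.09 ± 0.45) joined them when genotypes were averaged.

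The lists that follow were also chosen with earlier results known, and 0.679% of all genes passed in WT. Among 18 collagens and collagen-folding partners of Serpinh1, Col3a1 (1.5 ± 0.25) and Col5a2 (2.42 ± 0.48) rose in WT. Of 9 cysteine proteases Ctsl rose (1.29 ± 0.27), and of 11 receptors and cofactors of serpin complexes Vldlr fell (−1.88 ± 0.39). Of 11 partners of the hormone-carrying serpins none passed. None of the 8 lists had a member past the threshold for the tumour in KO livers or between genotypes. Of all genes, 0.0% passed for the tumour in KO and 0.00575% to 0.023% between genotypes. Of 10 listed target proteases of granulocytes and lymphocytes 6 were analysed here and 2 were tested, and neither of these passed in any comparison. The list summed to 11.7 to 36.0 in WT_no_tumor and 432 to 678 in WT_tumor, and to 4.73 to 52.6 in KO_no_tumor and 9.86 to 323 in KO_tumor, where the sums overlapped.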

How the data were processed

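RNA was rRNA-depleted and sequenced from snap-frozen, powdered liver, per the labels' protocols. The deposited values are a normalized signal per gene, which the authors made by dividing reads by DESeq2 size factors, as the deposited table is named. STAR 2.7.8a, Partek, DESeq2 and mm39 are named in the submitters' processing notes. The counting program, strand use and annotation release are not stated there or in the labels. Of low values (up to 20 reads), 78.0% to 84.9% were whole multiples of the value of 1 read within 0.01, so no count model was used, and depths are estimates.

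The 17380 genes that reached 10 in 3 or more libraries were tested on log2(value + 1), which understates changes of low genes, with limma 3.58.1 in R 4.3.3 (1 mean per group over 12 libraries, eBayes with trend, two-sided). P-values were adjusted by Benjamini-Hochberg within each of 7 comparisons. Members and lists were chosen with earlier results of these data known. Named genes were members past the threshold, the 4 largest differences in the 4 pairwise comparisons with a mean of at least 50, members fixed by role, Mtdh, and up to 4 called members of a list. One member is in the counts but is not reported here by name. The code was tested on simulated data. Transcripts (GENCODE M21) and RefSeq promoters were read with Biopython 1.88 under Python 3.11.15. Alternatives were pseudocounts of 10 and 0.1, filters, rescaling, quantile normalization, compared groups alone, robust eBayes, library weights, a replicate block, protein-coding genes alone and leaving libraries out.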

Additional observations from a re-analysis of the deposited data

How the results depend on the processing

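The counts of serpins past the threshold for the tumour in WT (2 in the analysis reported) and averaged over genotypes (4) differed between alternatives. With library weights they were 8 and 10, and for KO against WT 7 with a tumour and 1 averaged over tumour states, where 0 were reported. Without both libraries that stood apart the tumour counts were 5 and 2, and with the compared groups alone the count in WT was 4. It was 3, with Serpina3m added, under quantile normalisation, robust eBayes, a mean of at least 50 and protein-coding genes alone. Leaving out each library in turn gave 0 to 4 serpins in WT, 0 to 5 averaged over genotypes and 0 to 1 for KO against WT with a tumour. The cause of these moves was not tested. The counts for the tumour in KO, for KO against WT without a tumour and for the interaction stayed at 0 in every alternative run. Of 18 named values, the one whose sign changed was Serpina3g in KO against WT without a tumour (0.90), at −0.14 without both libraries and at −0.14 to 1.59 with each library left out, lowest without KO_no_tumor 3.

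The replicate block, with the replicate number as a factor, left 2 serpins in WT and 4 averaged over genotypes, with Serpina7 in place of Serpina3m (limma adjusted p = 0.065). Same-numbered libraries of different groups had correlations of −0.094 to 0.0998, 0 of 18 above 0.1, and 3 of 12 libraries were closest to their own number. The numbers are those of the sample titles, and KO_no_tumor 2 and 3 are numbered 3 and 4 in the deposited columns. No pairing by number was seen, but these values cannot exclude one. At KO_tumor 1's depth of 12722900 reads, where 1 read is worth 2.47, low clade B genes rest on few reads.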

Other observations

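The table also holds 4 rows with a Serpin symbol that are not protein coding. Serpina4-ps1, a pseudogene of the chromosome 12 cluster, was 207, 142 and 122 in WT_no_tumor, 335, 131 and 77.5 in WT_tumor, 115, 6.77 and 96.0 in KO_no_tumor, and 12.3, 61.1 and 38.5 in KO_tumor. The Serpina3h row of the transcribed pseudogene was 6.76 to 43.0, and the Serpina3h row of a long non-coding RNA 0.0026 to 40.0. Serpina3e-ps was 0 to 7.4 and was not tested. None of the tested rows passed the limma threshold in any of the 7 comparisons.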
